A study of Homo sapiens with 4 samples.

Results

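The AUH::V5 library comprised all 759 RNA sites that the authors listed for V5-tagged AUH in HEK293 cells, of 2341 sites in the 4 libraries of the series. The members are every site in that list, with no selection on any measured value. The other 3 libraries are replicates of the main experiment, in which GTPBP8::FLAG was purified, and they are not compared here. HEK293 is an established human embryonic kidney line. The cells of all 4 libraries are labelled WT dox inducible and received the same treatment. Doxycycline was given at 50 ng/ml over 48 h, 4-thiouridine (4SU) at 100 µM for the last 16 h, and UV light of 312 nm for 5 min. AUH was then pulled down on V5 beads out of a lysate of whole cells, and the bound RNA was trimmed with RNase T1, an enzyme that cuts after G. AUH carried a tag and was expressed from an inducible promoter, the lysate held every compartment of the cell, and a single library was sequenced, so no value below has a replicate and no test between conditions was possible.

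AUH is a mitochondrial enzyme of leucine degradation, methylglutaconyl-CoA hydratase, which was first isolated as a protein that binds AU-rich RNA. AU-rich elements are stretches with repeats such as AUUUA in the 3′ UTRs of short-lived mRNAs. In fPAR-CLIP, 4SU built into RNA is crosslinked to the protein that touches it, and the crosslinked base is read as C in place of T in the cDNA, so a site is a cluster of reads that carry such T-to-C conversions.

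The 759 sites held 9684 reads. The number of reads at a site was taken as the converted reads divided by the converted fraction, since the deposited total was a whole multiple of that value at 757 sites and a multiple above 1 at 383 of them. Sites had 4 to 233 reads with a median of 6, and 452 sites (59.6%) had 4 to 6 reads. The 179 sites with at least 10 reads carried 65.2% of all reads. Shares of reads are given with 95% Wilson intervals, which cover counting error only. They treat reads as independent, and whether PCR copies had been removed from this list was not established.

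Most of the sites lay in the nucleus-encoded transcriptome, and nuclear tRNA genes were the class of RNA with most reads. Of the 759 sites, 674 (88.8%) were on nuclear chromosomes with 7795 reads and 85 (11.2%) were on the mitochondrial DNA (mtDNA) with 1889 reads, 19.5% of the total (18.7 to 20.3%). By the annotation in the list, sites without any annotation were the largest nuclear class by reads, with 3228 reads at 170 sites (41.4% of nuclear reads, 40.3 to 42.5%). Positions of small RNA genes in RefSeq (GRCh38.p14) were then laid over the sites. Nuclear tRNA genes overlapped 112 sites with 2651 reads, 27.4% of the library (26.5 to 28.3%). Of these 112 sites, 87 had no annotation in the list, 21 were listed as intronic and 4 as exonic. Small nuclear RNAs (snRNAs) and their copies held 16 sites with 674 reads (6.96%), and vault RNA, RMRP, snoRNA, miRNA and 7SL genes held 13 sites with 188 reads (1.94%). Together the 3 groups of nuclear small RNAs took 36.3% of all reads. The mtDNA had fewer reads than the tRNA genes by this count. With the deposited totals in place of the reads per site the order turned, at 25.9% for the mtDNA and 16.9% for the tRNA genes. In the other alternatives run, the tRNA genes kept the larger share.

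**Figure D1:**
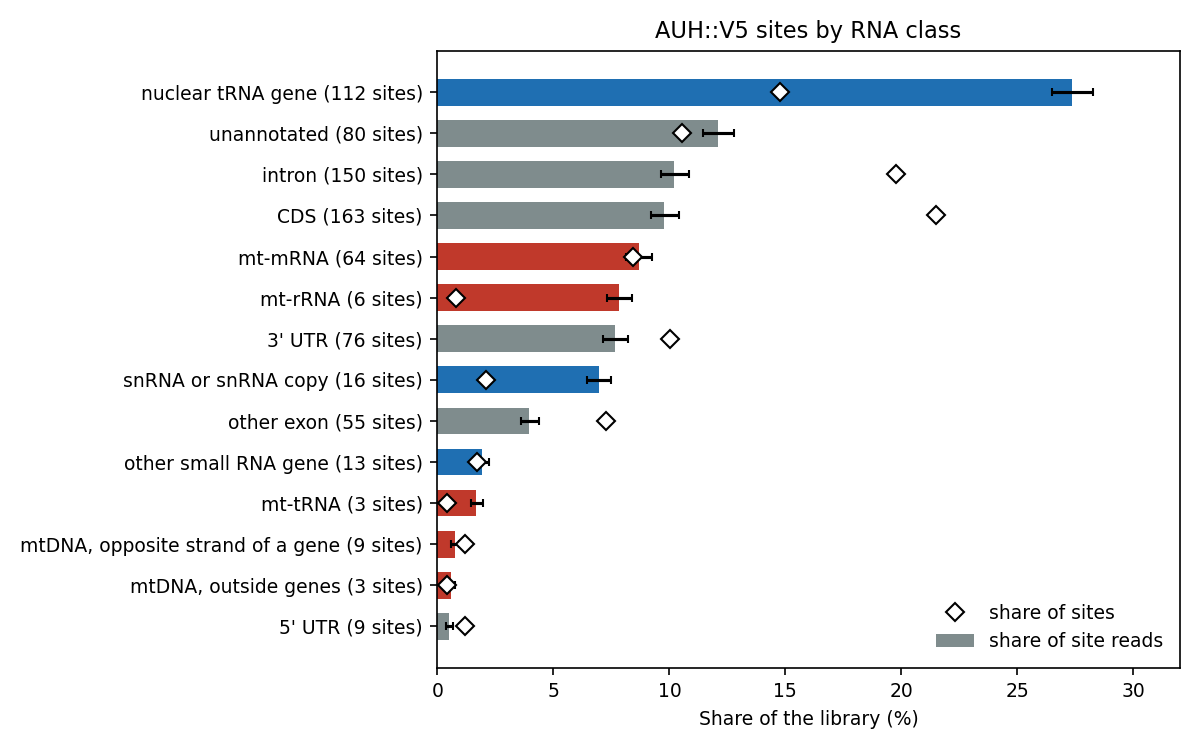
Share of the 9684 site reads (bars, with 95% Wilson intervals) and share of the 759 sites (diamonds) for each RNA class, in percent. Blue bars are nuclear small RNA classes, red bars mtDNA classes and grey bars the remaining nuclear classes. Nuclear tRNA genes held 14.8% of the sites and 27.4% of the reads, whereas coding sequence held 21.5% of the sites and 9.79% of the reads.

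The classes of coding sequence, UTRs, introns and other exons, the last 2 of which include non-coding genes such as XIST, had many sites with few reads each. After the small RNA genes were taken out, coding sequence (CDS) had 163 sites with 948 reads, introns 150 with 989, 3′ UTRs 76 with 741, other exons 55 with 383 and 5′ UTRs 9 with 49. The median site in CDS, intron, 3′ UTR and 5′ UTR had 5 reads, and 103 of the 163 CDS sites had exactly 5. The median site had 11.5 reads at tRNA genes, 31.5 at snRNAs and 119.5 at the mitochondrial rRNAs. Sites with at least 10 reads made up 1.84% of CDS sites, 9.21% of 3′ UTR sites, 59.8% of tRNA sites and 62.5% of sites in mitochondrial mRNAs.

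Mitochondrial transcripts were covered widely, with sites in both rRNAs, in 12 of the 13 mRNAs and in 3 of the 22 tRNAs. The mRNA without a listed site was ATP8. The 12 S rRNA of the small mitoribosomal subunit (RNR1) had 2 sites with 222 and 145 reads, and the 16 S rRNA of the large subunit (RNR2) had 4 sites with 107, 104, 49 and 132 reads in gene order. The last site of RNR2 ran past the end of the gene into the neighbouring tRNA for leucine. The 6 rRNA sites are shown because they held 759 of the 1889 mitochondrial reads (40.2%, 38.0 to 42.4%), a share that was 25.2% with the deposited totals. They lie on the plus strand of hg38 at chrM:1362-1410 and chrM:1511-1554 in RNR1, and at chrM:2230-2279, chrM:2617-2676, chrM:2884-2910 and chrM:3166-3242 in RNR2. Capitals mark runs of 5 or more A or T.
RNR1 site with 222 reads: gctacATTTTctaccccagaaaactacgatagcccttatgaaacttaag
RNR1 site with 145 reads: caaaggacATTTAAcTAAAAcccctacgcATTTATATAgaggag
RNR2 site with 107 reads: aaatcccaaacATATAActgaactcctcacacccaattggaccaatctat
RNR2 site with 104 reads: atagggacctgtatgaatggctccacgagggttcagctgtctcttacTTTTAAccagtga
RNR2 site with 49 reads: ctatactcaattgatccAATAActtga
RNR2 site with 132 reads: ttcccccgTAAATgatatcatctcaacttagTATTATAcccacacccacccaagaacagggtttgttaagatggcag

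Each of the 6 rRNA sites held at least 1 such run, and their A+U share ranged from 53.3% to 70.4% with a median of 61.6%. The share of all sites with such a run was not counted, so the runs describe the letters of these sites alone. The RNR1 site with 145 reads had 3 runs, and 2 of them held the ATTTA letters.

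The 3 of 22 mitochondrial tRNAs that had a listed site are short genes, for which 1 site can make many reads per kilobase. TRNI, the tRNA for isoleucine, had 73 reads at 1 site, TRNP, the tRNA for proline on the opposite strand, had 57 and TRNH, the tRNA for histidine, had 32. Per kilobase of gene this was 1058 reads for TRNI, 838 for TRNP and 464 for TRNH, against 385 for RNR1 and 251 for RNR2. The mRNAs lay between 32.6 reads per kilobase for ND2 and 107 for ND3. TRNI and TRNP are shown as the tRNA sites with most reads, at chrM:4296-4330 on the plus strand and chrM:15966-16007 on the minus strand, with runs of A or T in capitals as above.
TRNI: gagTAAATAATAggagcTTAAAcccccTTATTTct
TRNP: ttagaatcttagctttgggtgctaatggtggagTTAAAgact

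The TRNI site had an A+U share of 65.7% and 3 runs of A or T, and 72.6% of its reads were converted. The TRNP site had an A+U share of 61.9%, and 89.5% of its reads were converted.

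Reads in the mitochondrial mRNAs were spread over 64 sites, none with more than 33 reads. COX1, a subunit of cytochrome c oxidase (complex IV), had 149 reads at 8 sites of 8 to 32 reads. COX2 and COX3, subunits of the same complex, had 70 reads at 4 sites and 45 at 3. Of the complex I subunits, ND4 had 127 reads at 8 sites, ND5 had 121 at 12, ND1 had 74 at 5, ND3 had 37 at 3, ND2 had 34 at 2, ND4L had 27 at 3 and ND6 had 26 at 3. CYTB of complex III had 77 reads at 9 sites, and ATP6 of the ATP synthase had 54 at 4. COX1, ND4 and ND5 had most reads of the mRNAs, and ND3, COX2 and COX1 had most per kilobase. The site with most reads in an mRNA lies in ATP6 (33 reads, chrM:8659-8707, plus strand) and is shown for that reason, with an A+U share of 67.3% and no run of 5 A or T.
ATP6: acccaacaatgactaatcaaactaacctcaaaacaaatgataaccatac

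The plus strand has the sequence of the rRNAs and of all mRNAs but ND6. It held 71 of the 85 mitochondrial sites and 1701 of their 1889 reads (95% interval 88.6 to 91.3%). A total of 12 sites with 127 reads matched no gene on their own strand. Of these, 9 with 4 to 12 reads lay opposite a gene (COX2, ND5, ND6, CYTB, TRNT or TRNP) and 3 lay in the non-coding control region. The control region site with most reads, 38, was on the minus strand at chrM:342-382.

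**Figure D2:**
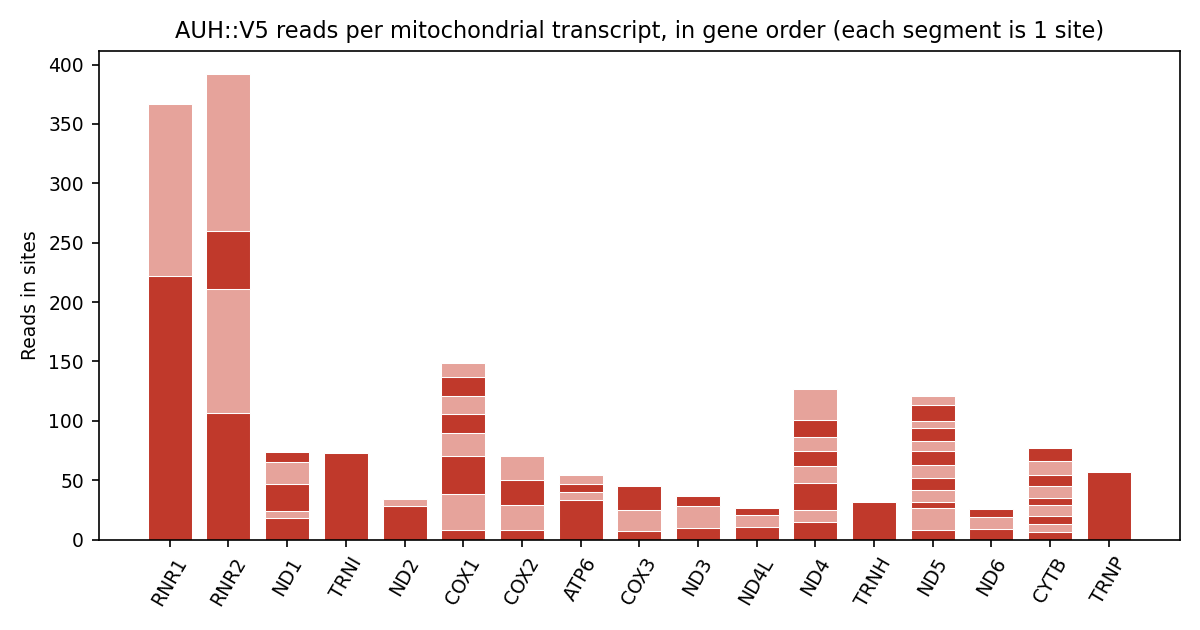
Reads in AUH::V5 sites for each mitochondrial transcript with a site, in the order of the genes on the mtDNA, on a linear axis. Each segment of a bar is 1 site, so the 2 segments of RNR1 are 222 and 145 reads, and COX1 is made of 8 segments of 8 to 32 reads.

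Nuclear tRNAs are read by RNA polymerase III as precursors with a 5′ leader and a 3′ trailer, which are cut off before the mature tRNA leaves the nucleus, and CCA is added to the 3′ end after the trailer is gone. The 112 sites fell on 106 of the 443 nuclear tRNA genes of RefSeq, 100 of them with 1 site. All 20 standard amino acids and selenocysteine were represented. Arginine tRNAs had 530 reads at 12 sites and valine tRNAs 507 at 6, followed by alanine with 235, lysine with 231 and aspartate with 197. The 10 genes with most reads held 1231 of the 2651 reads. Many tRNA genes are near-identical copies, so the gene within a family to which a read belongs is uncertain, while the family is less so. RefSeq was given without the strand of these genes, and the strand of the site was used. The run GTTCNA with A or G at N, which belongs to the T loop of tRNAs, was present in 44 of the 112 sites on the site's strand, and in 43 of the 44 it began 18 to 22 nt before the gene's end. It was present in 8 of the 647 other sites.

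The tRNA sites fell into a 5′ group and a 3′ group, and sites of both ran over the ends of the genes. In the 5′ group, 25 sites with 1176 reads (44.4% of tRNA reads, 42.5 to 46.3%) had their centre in the first part of the gene. Of these, 24 began before its first base, and over all 25 the start lay a median of 3 nt before it. A total of 74 sites with 1245 reads (47.0%, 45.1 to 48.9%) reached past the last base of the gene, by 1 to 24 nt with a median of 9. Of all 112 sites, 64 with 1011 reads reached more than 3 nt past it, further than an added CCA would. The other 13 sites, with 230 reads, were centred in the 3′ part and ended within the gene. No site spanned a gene from end to end.

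The sites with most reads of the 5′ group belonged to TRR-TCT1-1 (233 reads), TRV-AAC2-1 (163), TRV-TAC2-1 (132), TRR-CCG2-1 (128), TRK-TTT6-1 (118), TRV-CAC3-1 (104), TRV-CAC2-1 (83) and TRK-TTT4-1 (62). The names give the amino acid in 1 letter (R arginine, V valine, K lysine) and the anticodon. TRR-TCT1-1 was the site with most reads of the whole library, and the list gave it as an exon of the non-coding gene RP4-561L24.3. Of the 9 tRNA sites with most reads, 8 were in this group and the other was TRD-GTC1-1, an aspartate tRNA with 147 reads that the list gave as an intronic site named SNORD74. The following sites are shown to let the ends be seen, with capitals for bases outside the RefSeq gene. They lie at chr1:93847564-93847609 (+) for TRR-TCT1-1, chr17:68019929-68019979 (-) for TRR-CCG2-1, chr6:27335026-27335069 (-) for TRK-TTT6-1 and chr5:181188458-181188489 (-) for TRV-AAC2-1. In the 3′ group they lie at chr12:98503537-98503581 (+) for TRD-GTC1-1, chr6:28607196-28607233 (+) for TRA-AGC3-1, chr7:139340741-139340775 (+) for TRR-CCT4-1, chr6:28838436-28838461 (-) for TRA-AGC2-1 and chr6:28896214-28896238 (-) for TRL-CAA1-1.
TRR-TCT1-1: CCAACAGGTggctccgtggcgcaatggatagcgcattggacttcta
TRR-CCG2-1: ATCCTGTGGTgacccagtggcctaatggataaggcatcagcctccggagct
TRK-TTT6-1: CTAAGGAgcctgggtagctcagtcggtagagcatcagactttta
TRV-AAC2-1: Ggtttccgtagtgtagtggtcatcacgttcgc
TRD-GTC1-1: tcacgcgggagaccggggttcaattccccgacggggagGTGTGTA
TRA-AGC3-1: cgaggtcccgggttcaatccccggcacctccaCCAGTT
TRR-CCT4-1: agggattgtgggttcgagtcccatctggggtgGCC
TRA-AGC2-1: caatccccggcacctccaTTCCTTTT
TRL-CAA1-1: aatcccacttctgacaCATACTTTT

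TRR-TCT1-1 began 9 nt before the gene and TRR-CCG2-1 began 10 nt before it, while TRV-AAC2-1 began 1 nt before it. TRA-AGC2-1 and TRL-CAA1-1 ran 8 and 9 nt into the 3′ flank and ended in TTTT, the letters at which RNA polymerase III stops. Among the 74 sites that reached past the gene, 24 had at least 4 T in their last 5 bases, against 26 of the 647 sites outside tRNA genes. The A+U share of the tRNA sites was the lowest of the large classes, with a median of 43.3% and a range of 29.7% to 64.0%, and no tRNA site reached 70%.

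**Figure D3:**
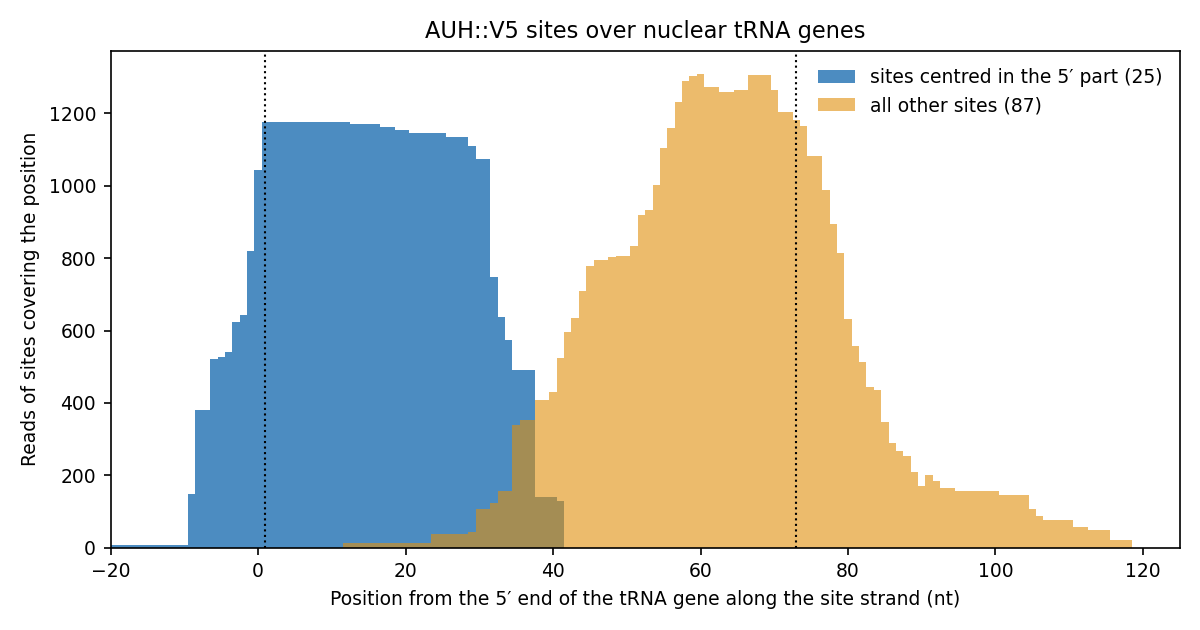
Reads of the AUH::V5 sites that cover each position, summed over 106 nuclear tRNA genes, against the distance in nt from the 5′ end of the gene along the site's strand. Dotted lines mark the first base and the median gene length of 73 nt, and each site counts over its whole length. The 25 sites of the 5′ group (1176 reads, blue) start mostly within 10 nt before the gene, and the other 87 sites (orange) rise to 1307 reads at position 60 and run past the gene's end.

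The spliceosomal snRNAs had sites of many reads in both the major and the minor spliceosome. RNU2-2, a U2 gene, had 95 reads and RNVU1-7, a variant U1 gene, had 89. RNU11, RNU12 and RNU4ATAC, which belong to the minor spliceosome, had 70, 34 and 16. The U5 family had 153 reads at 5 sites, led by RNU5D-1 with 61 and RNU5E-1 with 36, and the U1 family had 219 reads at 5 sites. RN7SK, the scaffold of the complex that holds back transcription elongation, had 82 reads at 1 site that was unannotated in the list. The snRNAs are multicopy genes with pseudogenes, so reads may be divided among copies.

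Most spliceosomal snRNAs, though not U6, carry a uridine-rich run on which the ring of Sm proteins sits. The letters AATTTTT, or ATTTGTGG for U1, were present in 10 of the 16 snRNA sites and in 12 of the 743 other sites. The 16 include the RN7SK site, which is not spliceosomal and did not hold the letters. Of those shown, which hold the run in capitals, RNVU1-7 lies at chr1:148038750-148038791 (-), RNU11 at chr1:28648679-28648724 (+), RNU5D-1 at chr1:44731067-44731101 (-), RNU12 at chr22:42615312-42615356 (+) and RNU4ATAC at chr2:121530979-121531011 (+).
RNVU1-7: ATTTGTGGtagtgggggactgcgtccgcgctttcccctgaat
RNU11: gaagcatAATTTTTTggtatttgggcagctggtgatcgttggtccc
RNU5D-1: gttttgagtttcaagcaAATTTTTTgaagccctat
RNU12: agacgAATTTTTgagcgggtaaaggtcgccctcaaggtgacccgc
RNU4ATAC: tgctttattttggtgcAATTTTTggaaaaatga

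These 5 sites had A+U shares from 42.9% for RNVU1-7 to 72.7% for RNU4ATAC. A match is a description of the letters and not evidence of Sm binding in this library. Among the other small RNAs, the vault RNAs VTRNA1-2 and VTRNA1-1 had 65 and 7 reads, RMRP, the RNA of RNase MRP, had 36 and 22 reads at 2 sites, and RN7SL1 of the signal recognition particle had 6.

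The nuclear genes with most summed reads by the names in the list followed from these classes. RP4-561L24.3 (233 reads) and SNORD74 (147) were the tRNA sites above. LAS1L, a factor of ribosome biogenesis, had 172 reads at 1 site in its 3′ UTR, and XIST, the long non-coding RNA of X inactivation, had 136 at 20 sites. Next were RNU2-2P with WDR74 (95), RNVU1-7 (89), MIEN1 (71, in the 3′ UTR), RNU11 (70), LYVE1 with MRVI1 (63, in an intron), RNU5D-1 (61), U1 (61), RMRP (58), RNU1-34P (58), C7orf55 with C7orf55-LUC7L2 (51, the tRNA gene TRR-CCT4-1) and U3 (48). Of the 4 sites under the name U1, 3 overlapped tRNA genes (39 of 61 reads), as did 2 of the 5 sites under U3 (29 of 48 reads). In all, 443 nuclear gene names had a site, 414 of them just 1. Besides XIST, U3 and U1, most sites fell to ERC1 (4 intronic, of 5 to 9 reads) and SRRM2 (4, of 5 to 7 reads). SRRM2 is a scaffold protein of nuclear speckles. The names CNBP, EEF2, MIR6501 with SON, SNORA75 and snoU13 had 3 sites each, where a joint name in the list is taken as 1 gene. Sites under SNORA75 and snoU13, and those left under U1 and U3, were intronic and overlapped no RefSeq small RNA gene. These names thus do not place the sites in those small RNAs. The snoU13 site with 33 reads held the letters TACAGTC, which are taken up under the other observations.

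XIST differed from the other high-ranking nuclear genes in that its reads were spread along the transcript. Its 20 sites had 5 to 11 reads each, 18 in exons and 2 in introns, with a median A+U share of 60.9% and a range of 41.1% to 89.3%. Its 2 most A+U-rich sites are shown, with runs of 5 or more A or T in capitals, at chrX:73821741-73821768 (6 reads) and chrX:73850348-73850376 (5 reads) on the minus strand.
XIST most A+U-rich site: AAAAATTTTTTTAAAATTTctcTAAATg
XIST second site: gaattcacTTTAATTAcATTTAATgagtt

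MALAT1 and NEAT1, long non-coding RNAs of the nucleus, had 10 and 9 reads at 2 sites and 8 reads at 1 site.

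Few genes had a site at all: of the 20039 nuclear protein-coding genes in RefSeq, 420 (2.10%) had one under their symbol or a synonym, and the lists of genes below are to be read beside that share. Of 30 mRNAs known for AU-rich elements, from which AUH takes its name, 0 had a listed site, a count too small to be set apart from that share. A gene without a listed site may still have had reads below the size at which a site was listed. Of 11 enzymes of leucine degradation, AUH itself had sites, 2 exonic ones with 7 and 5 reads, and reads of the AUH transgene and of the cell's own AUH gene cannot be told apart. Of 101 nuclear genes for subunits of oxidative phosphorylation, 3 had a site (NDUFA4L2 with 7 reads in an intron, ATP5A1 and NDUFB10 with 5 each). Of 77 mitoribosomal protein genes, 4 had one (MRPL1, MRPL51, MRPS2 and MRPS28, 5 reads each, the last in an intron). Cytosolic ribosomal protein genes had a site in 12 of 92 symbols with 93 reads, led by RPL8 with 19 reads at 3 sites, RPS6 with 12 and RPL18 with 11. Translation factor genes had a site in 10 of 78, led by EEF2 with 22 reads at 3 sites, all intronic, and EIF6 with 8. Of 20 genes with abundant mRNAs, 5 had a site (EEF2, in introns alone, PKM with 10 reads, TUBA1B with 9, ENO1 with 7 and ACTB with 5).

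The base composition of the sites followed their class. The median A+U share was 51.9% over all sites, 51.6% at nuclear sites (quartiles 41.9% and 62.1%, range 17.8% to 96.6%) and 54.3% at mitochondrial sites (quartiles 48.4% and 60%, range 32.3% to 75%). Among classes with more than 50 sites it was 61.1% in introns, 55.6% in other exons, 55.4% in 3′ UTRs and at sites still unannotated, 53.0% in mitochondrial mRNAs, 46.7% in CDS and 43.3% at tRNA genes. The quartile ranges of neighbours in this order overlapped. A site is listed only if it holds T-to-C conversions, so every site must contain T, and the shares are not those of random transcript sequence. With T left out, A made up 36.0% of A, C and G at the median mitochondrial site and 30.8% at the median nuclear site.

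Sites with an A+U share of at least 70% numbered 72, with 544 reads (5.62% of the library), and 6 of them had 10 or more reads. They made up 32 of the 150 intronic sites, 14 of the 80 unannotated sites and 14 of the 76 sites in 3′ UTRs, and 2 of the 85 mitochondrial sites. At nuclear sites with at least 10 reads the median A+U share was 46.4%, against 51.6% at all nuclear sites.

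**Figure D4:**
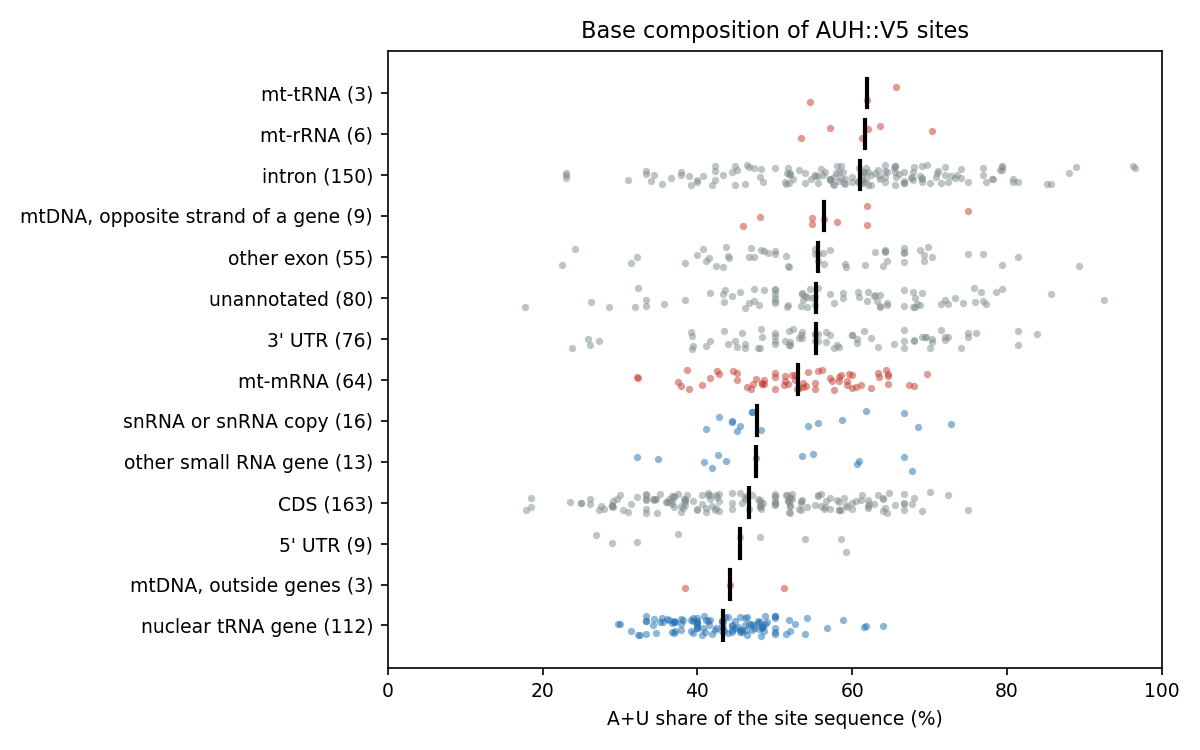
A+U share of each AUH::V5 site in percent, by RNA class, with the number of sites in brackets. Each dot is 1 site and the black bar is the median of its class, which ran from 43.3% at nuclear tRNA genes to 61.1% in introns among classes with more than 50 sites.

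The ATTTA letters, the core of an AU-rich element, were present in 27 of the 674 nuclear sites (4.01%) and in 2 of the 85 mitochondrial sites. By class they were in 12 of 150 intronic sites, 6 of 80 unannotated, 4 of 76 in 3′ UTRs, 4 of 55 in other exons and 1 of 163 in CDS, and in 0 of 112 at tRNA genes. Of the 27 nuclear sites, 25 had 5 to 8 reads. The longer element TTATTTATT was in 0 of the 674 nuclear sites. The 3′ UTR sites with ATTTA that are at most 30 nt long are shown with the letters in capitals, together with the ATTTA site that had most reads, which is intronic. They lie at chrX:85089584-85089606 (+) for APOOL, chr17:76734932-76734957 (-) for SRSF2, chr17:32379841-32379867 (+) for ZNF207 and chr11:10576782-10576803 (-) for LYVE1 with MRVI1.
APOOL: cacactcatttttcATTTAacag
SRSF2: taATTTAgtgaggtgaacgacttcag
ZNF207: ccctgctttATTTAgcctcgctatatg
LYVE1 with MRVI1: cacctgggaaaATTTAgccaat

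APOOL, a protein of the mitochondrial inner membrane, SRSF2, a splicing factor, and ZNF207, a zinc finger protein of the spindle, had 5 reads each at these sites. The LYVE1 with MRVI1 site had 63 reads.

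Pooled over reads, the share of converted reads was 42.3% at snRNAs, 46.8% at mitochondrial rRNAs, 57.4% at nuclear tRNA genes, 72.5% in mitochondrial mRNAs, 88.9% in CDS and 97.2% in 3′ UTRs. The list holds no site under 33.3%, and a site of 5 reads can take few values, so the shares are best compared at sites with many reads. At sites with 10 or more reads the median was 37.9% at 14 snRNA sites, 45.9% at the 6 mitochondrial rRNA sites, 66.7% at 67 tRNA sites, 70% at 40 sites in mitochondrial mRNAs and 100% at 7 in 3′ UTRs. The median of the 3 CDS sites of that size was 60%, below that of the tRNA sites, so the order of these 2 classes differed between the measures. Of the 38 sites with at least 40 reads, 20 were under 50% converted, and 10 of these were at tRNA genes, 5 at snRNAs and 4 on the mtDNA. Another 4 mitochondrial sites of that size were 50% to 90% converted. Within the tRNA genes, pooled reads were 43.7% converted in the 5′ group and 70.3% at the sites that reached past the gene. The difference went with reads per site. The 8 sites of the 5′ group with 50 or more reads were 34.8% to 43.3% converted, and the 17 with fewer reads had a median of 72.7%. The 3 sites of 50 or more reads that reached past the gene were 40.1% (TRD-GTC1-1), 62.7% (TRA-AGC3-1) and 47.1% (TRR-CCT4-1) converted.

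Of the same 38 sites, 10 were at least 90% converted, with 945 reads (9.76% of the library). None of the 10 was at a tRNA gene, an snRNA or the mtDNA, 3 were in 3′ UTRs and 4 were unannotated. Of the unannotated sites, 2 with 111 and 45 reads held the letters TACAGTC, which also occur in an adapter and are taken up under the other observations. The 10 sites included the 3′ UTR sites of LAS1L (172 reads, 98.8% converted), MIEN1 (71 reads, 98.6%) and PMAIP1, a pro-apoptotic BCL2 family protein (40 reads, 97.5%). DNMT1, the maintenance DNA methyltransferase, had the CDS site with most reads (37), all of them converted. The sites of LAS1L at chrX:65512633-65512662 (-) and of 2 unannotated loci at chrX:87071109-87071130 (+) and chr9:125240172-125240200 (-) are shown as the most read of the group, the last within the bounds of HSPA5 in RefSeq. Capitals mark runs of 5 or more A or T.
LAS1L: aactcagttgtccaccacaggggAATTTTg
chrX locus with 177 reads: tttgagactaggatgttgatat
chr9 locus with 157 reads: aaaccgctgaggcTTATTTgggaaagaag

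The chrX locus was 98.3% converted and the chr9 locus 98.1%.

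**Figure D5:**
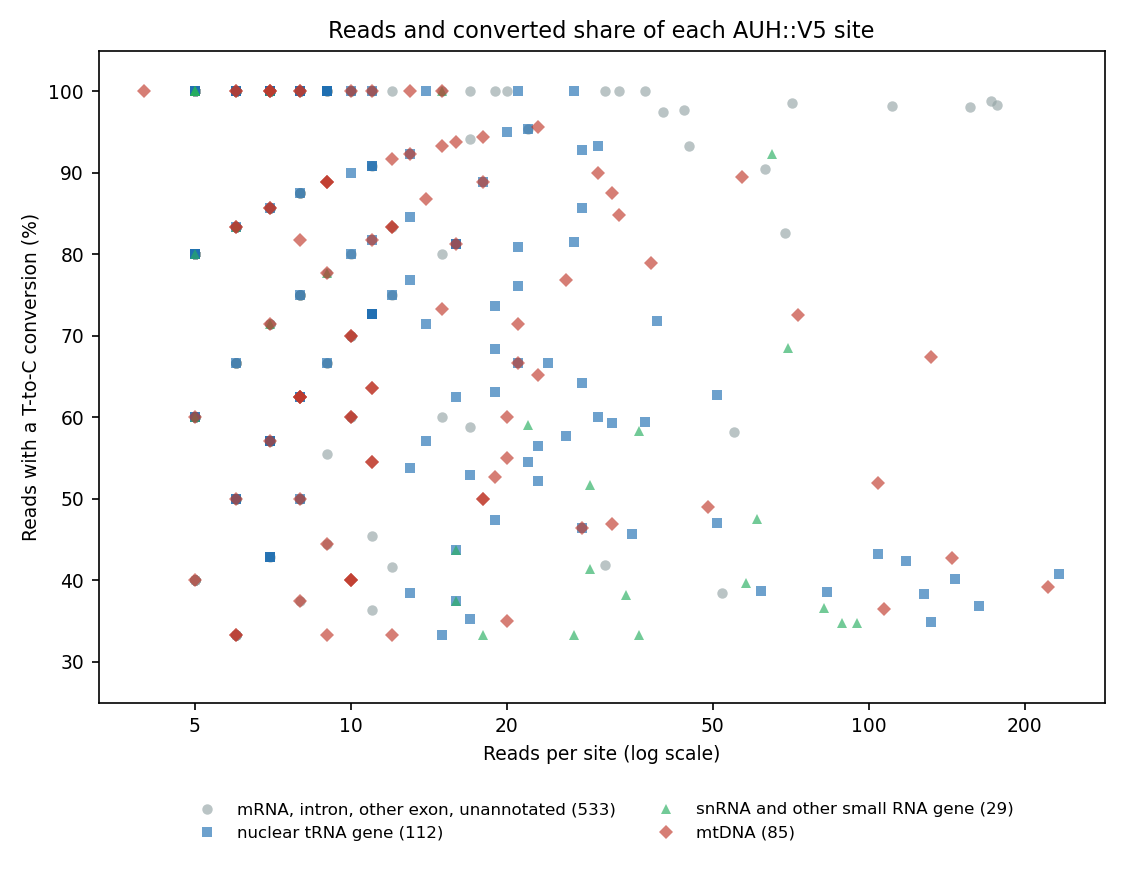
Reads per site (log scale) against the share of reads with a T-to-C conversion in percent, for all 759 AUH::V5 sites. Of the 38 sites with at least 40 reads, 20 are under 50% converted, among them 10 tRNA, 5 snRNA and 4 mtDNA sites, and 10 from other classes are at 90% or more.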

How the data were processed

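The series holds 4 fPAR-CLIP libraries, and the single AUH::V5 library was analysed here. The authors deposited a list of sites with coordinates on hg38, and the submitters' processing notes name bcl2fastq 2.17.1. The study's methods name Cutadapt, PARpipe and PARalyzer in a section that opens with GTPBP8::FLAG, and do not say whether they made the AUH list. In the deposited list, reads with a conversion are expected counts (not whole at 1 merged site), the fraction divides them by all reads of the site, and total reads and conversion positions are counts that appear, from their values, to be multiplied at annotated sites.

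Reads per site were converted reads divided by the fraction, rounded. Starts were set to 1-based positions. Mitochondrial sites were assigned by strand and longest overlap to RefSeq genes. A nuclear site went to a RefSeq small RNA gene on an overlap of at least 1 nt (GRCh38.p14, without strand), and otherwise to its listed annotation in the order CDS, 3′ UTR, 5′ UTR, exon, intron. Motifs were searched on the site's strand. The depth is 9684 site reads. Sites of 1 library are not replicates, so no test was made. Intervals are 95% Wilson intervals for shares.

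The choice of this library, the gene lists and the rule for named genes were chosen with earlier results of these data known. That rule takes each mitochondrial transcript with a site, the 15 nuclear genes with most reads, the 5 others with most sites, the site with most reads per class and up to 5 members of each list. The tRNA and snRNA classes, the motifs besides the AU-rich ones, and other named genes were chosen after their values were seen. Symbol prefixes set the lists of ribosomal, mitoribosomal, oxidative phosphorylation and translation factor genes among RefSeq protein-coding genes. Alternatives were the deposited totals, converted reads alone, sites of 10 or more reads, the top site left out, reads per nucleotide, other composition measures and other motifs. Software was Python 3.11.15, pandas 2.3.3, numpy 2.4.6, scipy 1.17.1 and matplotlib 3.10.9, and the functions were tested on simulated data. The sequence of 1 further mitochondrial site is not reported here.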

Additional observations from a re-analysis of the deposited data

How the results depend on the processing

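Of 56 alternatives, 16 stayed within the interval of the reported value, and a count of 398 nuclear genes listed as protein-coding was within 1.5 times the 443 reported. The 56 include the A share of A, C and G and the motifs TTATTT and TTATTTATT. These are other quantities than the A+U share and ATTTA, so their place outside the interval is no measure of stability. With the deposited totals, the shares of reads became 25.9% for the mtDNA, 25.2% for the rRNAs among mitochondrial reads, 94.1% for the plus strand of the mtDNA, 27.8% for listed unannotated sites among nuclear reads, 16.9% for tRNA genes and 22.9% for the 10 genes with most reads (main value 20.8%). The mtDNA then had more reads than the tRNA genes, and the order of these classes turned in this alternative alone. The deposited totals appear to be multiplied at annotated sites, and 87 of the 112 tRNA sites had no annotation in the list. With converted reads alone, the same shares were 16.8%, 30.1%, 88.1%, 38.1%, 21.6% and 16.5%. With sites of at least 10 reads they were 26.2%, 45.8%, 93.0%, 56.2%, 37.1% and 31.7%, the mtDNA held 29.6% of sites, 51 nuclear gene names had a site, the median A+U share was 46.4% at nuclear and 45.6% at listed unannotated sites, and 1.59% of nuclear sites held ATTTA. Without the site with most reads, the rRNA share was 32.2%, the unannotated share 42.7% and the tRNA share 25.6%. Per nucleotide of site, the mtDNA share was 14.7%, the rRNA share 35.1%, the tRNA share 25.6% and the share of the 10 genes 17.1%. Without sites of 10 or more reads that were at least 90% converted, an alternative chosen after seeing the data like those on tRNA overlap, the mtDNA share was 21.3% and the tRNA share 30.1%. The read-weighted A+U share of nuclear sites was 49.6%. The A share of A, C and G was 36.0% at mitochondrial, 30.8% at nuclear, 36.6% at 3′ UTR and 26.2% at listed unannotated sites. TTATTT was in 2.37% of nuclear sites and TTATTTATT in 0%.

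No paired analysis was possible because AUH::V5 has 1 library and no test was made. Leaving out a replicate was not run for the same reason. No input or control library was analysed with these sites, so RNA abundance and binding cannot be told apart. Sites with 4 to 6 reads limit what can be said of single mRNAs.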

Other observations

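Histone genes appeared among the sites that neither the list nor the small RNA genes of RefSeq named. Replication-dependent histone mRNAs end in a conserved stem-loop in place of a poly(A) tail. Of the 80 such sites, 5 with 39 reads lay within the bounds of RefSeq histone genes on chromosome 6, and 3 of these, with 12, 8 and 7 reads, held the letters CTTTTCAG, which belong to that stem-loop. The letters were in 4 of all 759 sites, the remaining one in the 3′ UTR of CD164. A stretch of 20 nt of each histone site is shown with these letters in capitals, at chr6:26285129-26285148 (-) for H4C8, chr6:26031595-26031614 (-) for H3C2 and chr6:26104315-26104334 (+) for H4C3. These letters were searched after the sites had been seen.
H4C8: aaggccCTTTTCAGggccgc
H3C2: aaggctCTTTTCAGagccac
H4C3: aaggccCTTTTCAGggccgc

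H4C8 and H4C3 were identical over these 20 nt.

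Of the 80 sites, 60 lay within the bounds of a RefSeq gene on either strand and 20, with 446 reads, lay outside every one. A further 2 sites, with 52 and 17 reads, overlapped genes that RefSeq names as tRNA pseudogenes for glutamate, TRE-TTC9-1 and TRE-TTC15-1, and they are not counted among the 112 tRNA sites.

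A total of 3 nuclear sites with 111, 45 and 33 reads, together 1.95% of the library, held the letters TACAGTC and were 93.3% to 100.0% converted. These letters also occur in a 5′ adapter in common use for small RNA libraries, and the part of adapter sequence in these sites was not tested.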
